A study of Mus musculus with 6 samples.

Results

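The genes described here encode the enzymes that break down material inside lysosomes, the proteins of the lysosomal membrane, and Tfeb, a transcription factor that controls many of them. They were taken by symbol from a list of 37 genes, and all 37 had at least 1 probe on the array, of 19057 named genes in all. Together they had 81 of the 45281 probes, and 33 of the genes, through 57 probes, were bright enough to be tested. RNA came from the kidney cortex of male C57BL6 mice, on Illumina MouseWG-6 v2 bead arrays with 1 mouse per array. The captopril group was 3 mice that drank water with captopril, which blocks angiotensin-converting enzyme, at 10 mg/kg per day over 7 days from the age of 11 weeks. The control group was 3 mice for which the labels give no agent, and the labels put the mice of both groups at 12 weeks. The study's question is what enzyme inhibition does to cortical transcripts. The cortex was cut out whole, so a fall in a transcript and fewer cells of the type that makes it cannot be told apart.

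Lysosomes are acidic compartments in which hydrolases digest proteins, glycans and lipids delivered by endocytosis and autophagy. Proximal tubule cells, which make up much of the cortex, take up filtered protein by endocytosis and degrade it there, so the kidney is among the tissues rich in lysosomal enzymes. Tfeb is held in the cytoplasm while the kinase complex mTORC1 on the lysosomal surface is active, and otherwise enters the nucleus and binds E-boxes in the promoters of lysosomal genes.

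The core of the E-box that Tfeb binds is CACGTG, and many promoters of lysosomal genes carry it. Promoter windows reaching from 250 bases before to 50 bases after the start site were available for 32 of the 37 genes, from RefSeq on GRCm38.p6. Of these 32 genes 12 held CACGTG, or 37.5%, against 2187 of 27025 genes in the whole table, or 8.09%. The longer palindrome TCACGTGA, which contains the core, was in 3 of the 32, Ctsd, Gla and Mcoln1, or 9.38%, against 304 of 27025 genes, or 1.125%. The 10-letter GTCACGTGAC was in 0 of the 32 windows and in 0.37% of all genes. Each of these letter strings reads the same on both strands, so 1 search covered both, and a match is a description of the letters only. No window was read for Ctsb, Ctsh, Asah1, Galns and Npc1. The stretches below are shown because they hold the densest cluster, the longer palindromes, or the site of a gene set out in detail below, with the matching letters in capitals and each read 5′ to 3′ on the strand of its gene.
Lamp1, chr8:13159088-13159163, plus strand: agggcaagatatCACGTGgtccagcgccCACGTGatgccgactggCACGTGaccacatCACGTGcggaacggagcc
Mcoln1, chr8:3500436-3500491, plus strand: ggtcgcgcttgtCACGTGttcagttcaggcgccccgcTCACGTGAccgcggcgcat
Gla, chrX:134601182-134601244, minus strand: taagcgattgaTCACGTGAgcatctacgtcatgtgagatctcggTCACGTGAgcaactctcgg
Ctsd, chr7:142387908-142387937, minus strand: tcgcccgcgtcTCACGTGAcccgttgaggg
Ctsf, chr19:4855074-4855103, plus strand: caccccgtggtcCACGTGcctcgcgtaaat
Naglu, chr11:101070009-101070038, plus strand: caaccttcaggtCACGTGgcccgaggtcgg
The Lamp1 window held 4 cores, centred between 58 and 12 bases before the start site. Mcoln1, Gla and Ctsd held 2 each, the second core of Ctsd lying 242 bases before its start outside the stretch shown, and the palindrome of Mcoln1 was centred 42 bases before its start. The single cores of Ctsf and Naglu lay 76 and 70 bases before their starts.

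Probes of the same lysosomal gene often differed in whether they were detected. On each array a probe counted as detected when its detection p-value was under 0.05, and the dimmest detected probe of an array had an intensity of 120 to 158 scanner units, called the detection limit here. Of the 81 probes of the lysosomal genes, 54 were detected on all 6 arrays, 7 on 1 to 5 arrays and 20 on none. Over the whole array, 13416 of 45281 probes were detected on all 6 arrays. Of all 19057 named genes 9718 were tested, beside 33 of the 37 lysosomal genes. In 11 genes, Arsa, Arsb, Asah1, Ctsb, Gaa, Glb1, Lamp2, Man2b1, Npc1, Scarb2 and Tpp1, 1 probe was detected on all 6 arrays while another was detected on none. A dark probe on this array is thus by itself no sign that a gene is silent. In Ctsb, Arsa, Arsb and Asah1 the dark probe and the brightest probe are annotated to the same transcript. In others, such as Gaa and Tpp1, they are annotated to different ones. A poor probe and a transcript form that is not expressed were not told apart. Of the 33 tested genes, 16 had a probe over 10 times the detection limit on every array and 6 had their brightest probe under 2 times the limit on some array. Prosaposin (Psap) was read at 141 to 159 times the limit, Cd63 at 102 to 127 times, Lamp1 at 83.7 to 104 times and legumain (Lgmn) at 69.6 to 87.8 times. The probe of Ctsl, in contrast, was read at 1.09 to 1.24 times the limit, so small changes of Ctsl are hard to see here. Intensities of different probes also reflect the probes themselves and give no order of transcript abundance.

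Ctsd, Gla, Sgsh and Ctso were too dim to test. Cathepsin D (Ctsd), the aspartic protease of the lysosome, had 1 probe, with intensities of 148, 131 and 142 in the captopril cortices and 142, 111 and 136 in the control cortices. It was detected on 1 captopril array and 0 control arrays, and the groups overlapped. Alpha-galactosidase A (Gla), which trims globotriaosylceramide, had 1 probe at 139, 104 and 152 in captopril and 139, 104 and 136 in control, again detected on 1 captopril array and 0 control arrays. The 3 probes of heparan N-sulfatase (Sgsh) were detected on no array, and the 3 probes of Ctso, a cysteine cathepsin, were detected on fewer than the 3 arrays that the filter asks for. No difference is given for these genes.

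**Figure D1:**
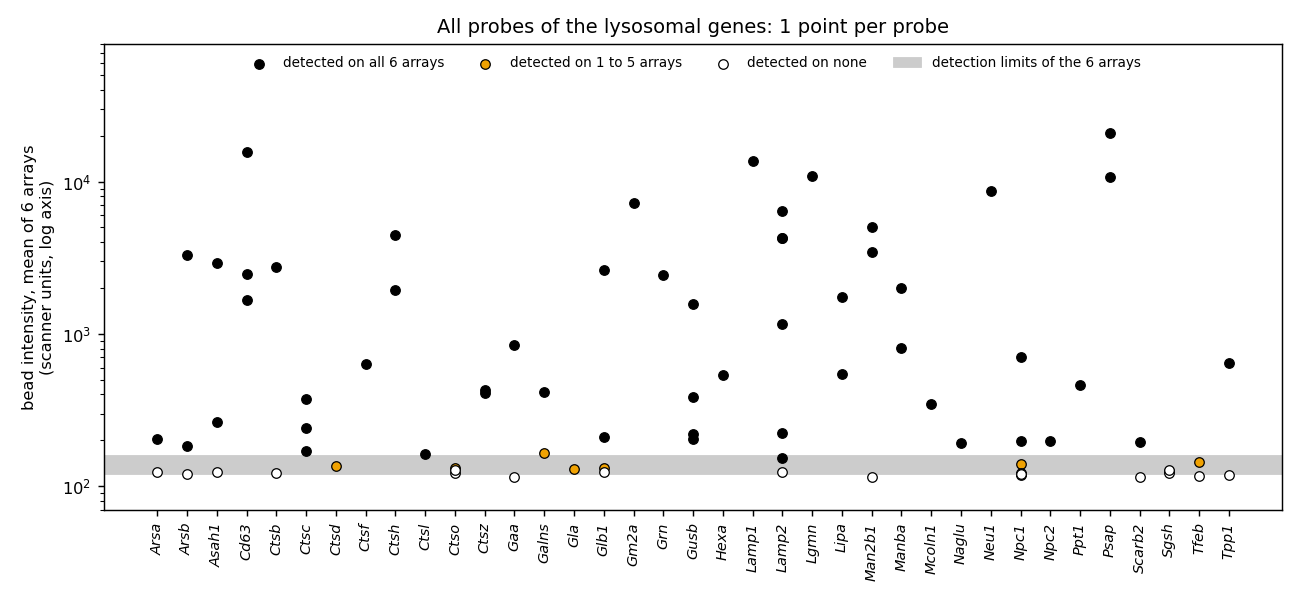
Bead intensity of all 81 probes of the 37 lysosomal genes (vertical axis, scanner units on a log scale, mean of the 6 arrays), with 1 point per probe and the genes in alphabetical order. Filled points were detected on all 6 arrays, orange ones on 1 to 5 and open ones on none, and the grey band spans the detection limits of the 6 arrays. Open points lie in or below the band, also for genes such as Ctsb or Lamp2 whose other probes lie far above it.

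No lysosomal transcript passed the test between the cortices of captopril and control mice, and the measured differences were small. After background correction and quantile normalization the 33 tested genes differed by -0.30 (Naglu) to 0.32 (Tfeb) on the log2 scale, captopril minus control, or 0.812-fold to 1.25-fold. In limma 0 of the 33 passed an adjusted p of 0.05, against 0 of 9718 named genes (0%), and the adjusted p of the 33 ran from 0.995 to 1.00. At an unadjusted p under 0.05 the count was also 0 of 33, against 359 named genes (3.69%, with 1.91% higher and 1.78% lower). That count was 1 without background correction (Ctsf) and 1 in the authors' processed values (Arsb), beside 3.81% and 4.44% of all named genes. Over all tested probes 3 passed, none of them with a gene name (0.0182%). Values were higher in captopril in 17 genes and lower in 16, where 49.1% of all named genes were higher. The median difference of the lysosomal genes was 0.0076, beside -0.0034 over all named genes.

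The size of a difference that these arrays leave room for can be read from the intervals. The standard error of a difference was 0.12 to 0.24 on the log2 scale. For 28 of the 33 genes the 95% interval of the difference lay within a change of 1.5-fold either way, and for all 33 it lay within 2-fold. These intervals are for the brightest tested probe of each gene. A dimmer Galns probe had a 95% interval of -1.25 to 0.44 on the log2 scale. In 6 genes the brightest probe lay under 2 times the detection limit on some array. There the interval may not bound the change of the transcript. The measured difference itself was within 1.2-fold for 30 genes, the others being Ctsf, Naglu and Tfeb. A p that misses the threshold does not show that the levels were equal.

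**Figure D2:**
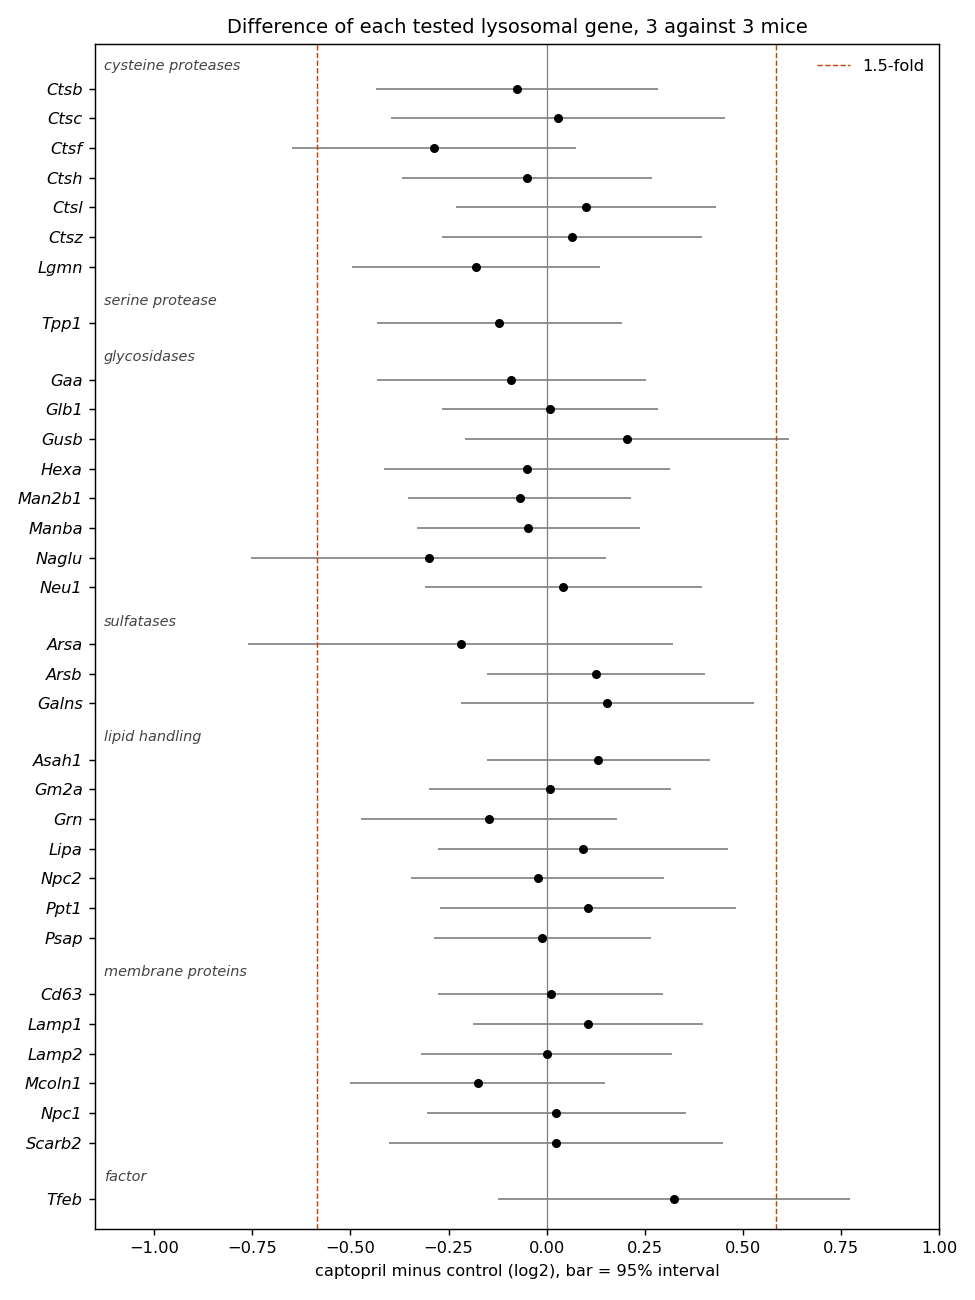
Log2 difference of each of the 33 tested genes, captopril minus control (horizontal axis), ordered by role, with the 95% interval from limma as a bar (3 mice per group). The dashed lines mark 1.5-fold. Every interval crosses 0, and 5 of them, Ctsf, Gusb, Naglu, Arsa and Tfeb, reach past a dashed line.

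The cysteine proteases include the cathepsins that degrade most protein in the lysosome. Cathepsin F (Ctsf) had log2 levels of 8.89, 8.99 and 8.79 in the captopril cortices and 9.01, 9.07 and 9.46 in the control cortices. All 3 captopril arrays lay below all 3 control arrays, although the nearest of them, 8.99 and 9.01, almost met. The means were 8.89 ± 0.10 in captopril and 9.18 ± 0.25 in control (SD, n = 3 each). The difference of -0.29 (SE 0.16, 95% interval -0.65 to 0.07) had the smallest unadjusted p of the 33 genes, 0.104, and an adjusted p of 0.995 in limma. Without normalization the intensities of its probe overlapped, at 722, 519 and 572 in captopril and 663, 555 and 784 in control.

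Legumain (Lgmn), the asparaginyl protease that matures several cathepsins, had log2 levels of 13.20, 13.49 and 13.25 in captopril and 13.44, 13.62 and 13.43 in control. Captopril 2 lay above 2 of the control arrays, and the difference was -0.18 (SE 0.14, unadjusted p 0.223 in limma). Cathepsin B (Ctsb), an endopeptidase that also trims peptides from their ends, had log2 levels of 11.43, 11.19 and 11.30 in captopril and 11.52, 11.51 and 11.11 in control, a difference of -0.08. Its lowest and its highest level both came from control mice. Cathepsin L (Ctsl), an endopeptidase, had log2 levels of 5.86, 5.67 and 5.85 in captopril and 5.48, 5.81 and 5.79 in control, a difference of 0.10 at a probe close to the detection limit. The aminopeptidase cathepsin H (Ctsh) differed by -0.05 on the log2 scale, the carboxypeptidase cathepsin Z (Ctsz) by 0.06 and cathepsin C (Ctsc), which activates granule serine proteases, by 0.03. Of the 7 tested cysteine proteases 3 had higher and 4 had lower values, with a median difference of -0.05.

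The serine protease Tpp1, which removes tripeptides from the ends of proteins, had log2 levels of 8.98, 9.13 and 8.92 in captopril and 8.99, 9.26 and 9.15 in control. Captopril 1 and 3 lay below every control array and captopril 2 lay among them. The difference was -0.12 (SE 0.13, unadjusted p 0.399, adjusted p 0.995 in limma).

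The glycosidases cut sugars from glycans, glycolipids and glycogen. Naglu, which removes N-acetylglucosamine from heparan sulfate, had log2 levels of 6.56, 6.17 and 5.85 in captopril and 6.59, 6.61 and 6.30 in control. The captopril arrays were spread over 0.36 (SD) and the control arrays over 0.17, and captopril 1 lay among the controls. The difference of -0.30 (SE 0.20, 95% interval -0.75 to 0.15) had an unadjusted p of 0.164 and an adjusted p of 0.995 in limma. Its probe was read at 1.18 to 1.54 times the detection limit, and in the authors' processed values, which are compressed for dim probes, the difference was -0.06.

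Beta-glucuronidase (Gusb), which acts on glucuronide-bearing glycosaminoglycans, had 4 tested probes. The brightest had log2 levels of 10.94, 10.49 and 10.31 in captopril and 10.50, 10.26 and 10.36 in control. The value of captopril 1 stood apart from the other 5 arrays. The difference was 0.20 (SE 0.18, unadjusted p 0.290 in limma) and was 0.03 without captopril 1. All 4 probes gave positive differences, from 0.11 to 0.44 on the log2 scale. The highest of these belonged to a dimmer probe, ILMN_1256735, picked out after its values were seen, with log2 levels of 6.57, 6.79 and 6.92 in captopril and 6.23, 6.10 and 6.63 in control. Captopril 1 lay below control 3 there, and the unadjusted p was 0.037 and the adjusted p 0.995 in limma.

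The other glycosidases lay close to 0 at their brightest probes. The alpha subunit of beta-hexosaminidase (Hexa) had log2 levels of 8.74, 8.82 and 8.63 in captopril and 8.49, 8.92 and 8.93 in control, a difference of -0.05. Sialidase (Neu1) had log2 levels of 13.10, 13.02 and 13.04 in captopril, all between the lowest and the highest of the control levels of 13.24, 12.75 and 13.06. Beta-galactosidase (Glb1) differed by 0.0081 on the log2 scale, with means of 11.30 ± 0.06 in captopril and 11.29 ± 0.05 in control (SD, n = 3 each). The differences were -0.09 for acid alpha-glucosidase (Gaa), which clears glycogen, -0.07 for alpha-mannosidase (Man2b1) and -0.05 for beta-mannosidase (Manba). A second tested probe gave -0.21 for Manba, 0.14 for Man2b1 and 0.13 for Glb1. Of the 8 tested glycosidases 3 had higher and 5 had lower values.

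The sulfatases remove sulfate groups from glycosaminoglycans and sulfolipids. Arylsulfatase B (Arsb), which acts on dermatan sulfate, had log2 levels of 11.78, 11.69 and 11.64 in captopril and 11.54, 11.64 and 11.55 in control. The captopril arrays all lay above the control arrays, the nearest pair by less than the rounding of these values. The difference was 0.13 (SE 0.12, 95% interval -0.15 to 0.40), with an unadjusted p of 0.325 and an adjusted p of 0.995 in limma. A dimmer Arsb probe gave -0.0017. Arsb and Ctsf were the only ones of the 33 genes whose groups did not overlap, 1 higher and 1 lower, beside 848 of 9718 named genes (8.73%), of which 3.98% of the 9718 were higher and 4.74% lower.

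Arylsulfatase A (Arsa), which desulfates sulfatide, had log2 levels of 6.69, 6.61 and 5.95 in captopril and 6.74, 6.88 and 6.29 in control. The difference of -0.22 had the largest standard error of the group, 0.24, and captopril 3 lay below the rest. The Arsa probe was read at 1.21 to 1.61 times the detection limit, and in the authors' processed values the difference was -0.05. Galns, which acts on keratan sulfate, gave 0.15 at its brighter probe and -0.40 at a dimmer one that was detected on 2 captopril and 3 control arrays.

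Lipids are handled by lumenal hydrolases, by small activator proteins and by carriers. Acid ceramidase (Asah1), which splits ceramide, had log2 levels of 11.53, 11.54 and 11.46 in captopril and 11.31, 11.34 and 11.50 in control. Control 3 lay among the captopril arrays and the other controls lay below. The difference was 0.13 (SE 0.12, unadjusted p 0.318, adjusted p 0.995 in limma), and the second tested probe gave 0.22. Prosaposin (Psap), the precursor of the saposin activators, had log2 levels of 14.29, 14.38 and 14.35 in captopril and 14.33, 14.43 and 14.29 in control. The difference was -0.01 at this probe and -0.02 at the other, and the 95% interval of -0.29 to 0.27 was among the narrow ones. Progranulin (Grn), a precursor of lysosomal granulins, had log2 levels of 11.18, 11.15 and 10.95 in captopril and 11.22, 11.10 and 11.41 in control, a difference of -0.15 with overlap.

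The remaining lipid genes had small differences on the log2 scale. These were 0.0076 for the ganglioside activator Gm2a, 0.09 for acid lipase (Lipa), which hydrolyses cholesteryl esters, -0.02 for the cholesterol carrier Npc2 and 0.10 for Ppt1, which removes palmitate from proteins. The 7 lipid genes were divided into 4 with higher and 3 with lower values.

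Among the membrane proteins, Mcoln1, the cation channel through which lysosomes release calcium, had log2 levels of 7.89, 7.79 and 7.69 in captopril and 7.82, 8.17 and 7.91 in control. Captopril 1 lay between control 1 and control 3, and the difference of -0.18 (SE 0.14, 95% interval -0.50 to 0.15) had an unadjusted p of 0.248 and an adjusted p of 0.995 in limma. Lamp1, a heavily glycosylated protein of the membrane whose promoter holds the E-box cluster shown above, had log2 levels of 13.71, 13.75 and 13.84 in captopril and 13.53, 13.73 and 13.73 in control. The highest 2 values were from captopril mice and the lowest from a control mouse, with a difference of 0.10 (SE 0.13). Lamp2, which takes part in autophagy, had log2 levels of 12.51, 12.56 and 12.79 in captopril and 12.48, 12.71 and 12.68 in control, and its means were 12.62 ± 0.15 in captopril and 12.62 ± 0.12 in control (SD, n = 3 each). The 6 tested probes of Lamp2 gave differences from -0.14 to 0.13.

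The tetraspanin Cd63 had log2 levels of 13.99, 13.95 and 13.86 in captopril and 13.83, 14.03 and 13.90 in control, a difference of 0.01. Scarb2, the receptor that carries glucocerebrosidase to the lysosome, differed by 0.02 on the log2 scale at a probe read at 1.23 to 1.60 times the detection limit. The cholesterol exporter Npc1 differed by 0.02 at its brightest probe. A dimmer Npc1 probe, ILMN_1247075, picked out after its values were seen, had log2 levels of 5.43, 5.29 and 4.93 in captopril and 5.08, 4.66 and 4.61 in control, a difference of 0.43 with an adjusted p of 0.995 in limma. It was detected on 2 captopril arrays and 1 control array. This probe and the dimmer Gusb probe were the only 2 of the 57 tested probes with an unadjusted p under 0.05, where 4.28% of all tested probes had one.

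Tfeb itself was read at the edge of detection. Its probe had intensities of 175, 139 and 147 in captopril and 147, 114 and 145 in control, which is 0.956 to 1.11 times the detection limit, and it was detected on 2 captopril arrays and 1 control array. On the log2 scale the levels were 5.44, 5.56 and 5.03 in captopril and 4.86, 4.86 and 5.33 in control. Captopril 3 and control 3 cross, so the groups overlapped. The difference of 0.32 (SE 0.19, 95% interval -0.12 to 0.77) had an unadjusted p of 0.135 and an adjusted p of 0.995 in limma, and in the authors' processed values it was 0.04. A second Tfeb probe was detected on no array.

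Genes with several probes show how far a difference belongs to the gene. Of the 15 genes with several tested probes, 8 had probes of both signs, namely Arsb, Cd63, Ctsc, Ctsz, Galns, Lamp2, Lipa and Man2b1. The Ctsc probes gave -0.03 to 0.32 on the log2 scale, the Man2b1 probes -0.07 to 0.14, the Lipa probes -0.08 to 0.09, the Ctsz probes -0.11 to 0.06 and the Cd63 probes -0.14 to 0.02. The 7 genes whose probes kept 1 sign were Asah1, Ctsh, Glb1, Gusb, Manba, Npc1 and Psap.

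**Figure D3:**
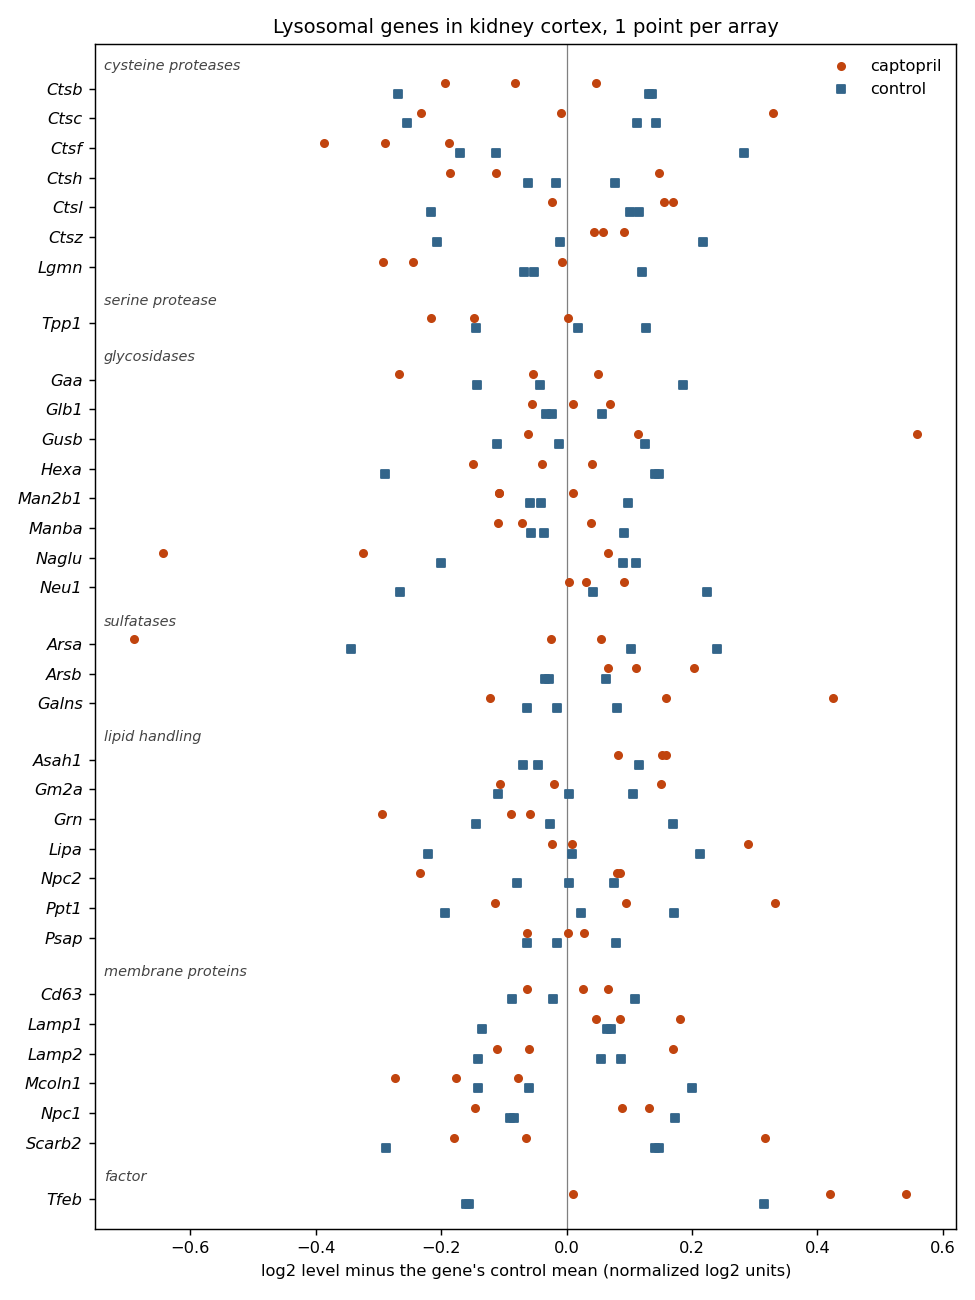
Log2 level of each of the 33 tested genes on each array, shown as the distance from the gene's control mean (horizontal axis, log2 units), with captopril mice as circles and control mice as squares, 1 point per mouse. Circles and squares overlap in every gene but Ctsf and Arsb, and Naglu, Arsa and Gusb have the widest captopril spread.

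Read across genes, the level of the lysosomal genes after quantile normalization moved somewhat from array to array. The mean deviation of the 33 genes from their 6-array means was 0.07, 0.01 and -0.09 on the log2 scale in captopril mice 1 to 3, and -0.01, -0.01 and 0.04 in control mice 1 to 3. The captopril arrays thus held both the highest and the lowest of the 6 values. Over all 9718 tested named genes the mean deviation stayed between -0.01 and 0.01 on every array, as quantile normalization sets the arrays to the same distribution. Captopril 3 had the lowest level of 11 of the 33 genes, and control 1 of 8. Captopril 1 had the highest level of 8, and control 2 of 7. Such counts were not made over all named genes.

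Macrophages are rich in lysosomes, so their markers were read beside these values. Of 16 macrophage marker genes with a probe, 11 were detected on all 6 arrays, Itgam on none and Adgre1 on 2 captopril arrays. The 13 that were tested had a mean deviation of 0.23, 0.39 and -0.26 in captopril mice 1 to 3 and -0.01, -0.14 and -0.20 in control mice 1 to 3. Their median difference was 0.23, with 12 of 13 higher in value and 0 past the threshold. Like the lysosomal genes, they stood lower on captopril 3 than on the other captopril arrays. On captopril 2 the macrophage markers stood highest, at 0.39, and the lysosomal genes at 0.01. On control 3 the markers stood at -0.20 and the lysosomal genes at 0.04. The part of macrophages in the values of the lysosomal genes was not tested. Markers of the proximal tubule had a mean deviation of 0.0006, -0.01 and 0.03 in captopril and 0.12, -0.06 and -0.07 in control, and 11 of 13 were detected on all 6 arrays. The phosphate transporter Slc34a1, which marks the proximal tubule, had a mean log2 level of 14.88 in both groups. Of the markers of the loop, distal tubule and collecting duct, 7 of 9 were detected on all 6 arrays, so detection does not single out a tubule segment. Their median difference was 0.04, with 6 of 8 tested genes higher in value. Among them Pvalb had an unadjusted p under 0.05 (difference 0.36, p 0.0449, adjusted p 0.995 in limma), beside 3.69% of all named genes.

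Adipocyte markers varied by array more than the others, at 0.92, -0.70 and 0.77 in captopril and -0.82, -0.41 and 0.24 in control. These values rest on the 4 tested genes Adipoq, Lep, Ucp1 and Cidea, each detected on 2 captopril arrays and 1 or 2 control arrays. None of the 7 adipocyte markers with a probe was detected on all 6 arrays, and Fabp4, Plin1 and Retn were detected on none. The lysosomal genes stood at 0.07 on captopril 1 and -0.09 on captopril 3, the arrays with the highest adipocyte values, and the part of fat in them was not tested.

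**Figure D4:**
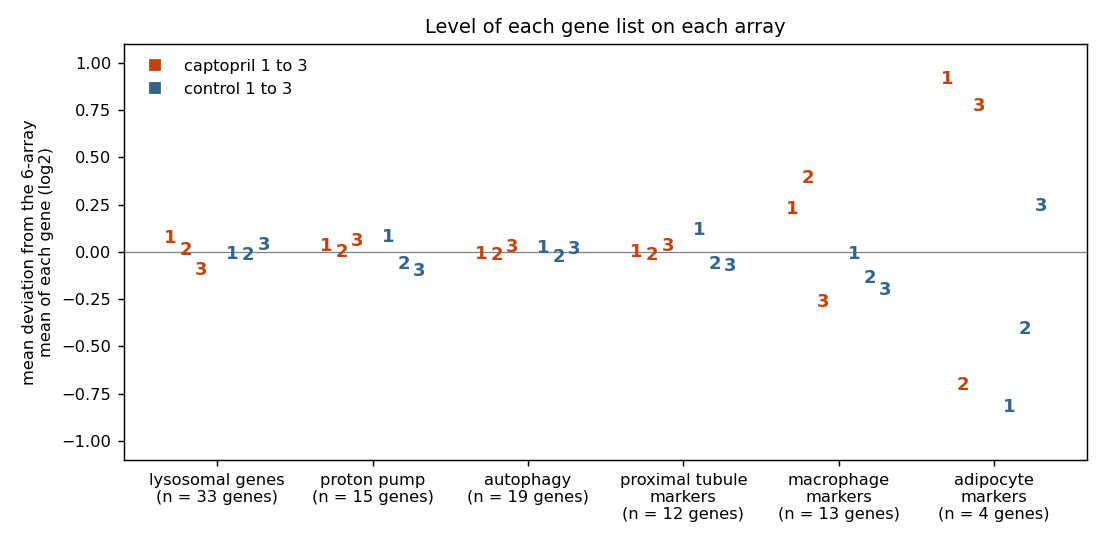
Mean deviation of the tested genes of 6 lists from their 6-array means (vertical axis, log2), with 1 numeral per array, captopril mice 1 to 3 on the left of each list and control mice 1 to 3 on the right. The lysosomal, proton pump, autophagy and proximal tubule lists stay within 0.12 of 0 on every array, whereas the macrophage and adipocyte markers spread further.

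The wider lysosomal pathway was read from 8 further lists with 126 genes, of which 96 were tested. In limma 0 of the 96 passed the threshold and 0 had an unadjusted p under 0.05, beside 3.69% of all named genes. Values were higher in captopril in 53 and lower in 43, with a median difference of 0.0072, and the groups did not overlap in 8 genes, beside the 8.73% of all named genes given above. For each list the 2 genes with the smallest unadjusted p are given, with differences on the log2 scale, and the adjusted p of each was 0.995 in limma.

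Other lysosomal hydrolases had 6 of 13 values higher. Dnase2a, which digests DNA of engulfed cells, had log2 levels of 5.75, 5.65 and 5.63 in captopril and 5.94, 6.01 and 5.88 in control, without overlap, a difference of -0.26 with an unadjusted p of 0.0602 in limma. Its other tested probe gave 0.08. In the authors' processed values, which are compressed for dim probes, the difference of the first probe was -0.04. Idua, which acts on heparan and dermatan sulfate, differed by -0.28 with overlap, and by -0.09 in the authors' processed values. Other lysosomal membrane proteins had 10 of 17 values higher. Mfsd8, a transporter-like membrane protein, had log2 levels of 5.68, 5.70 and 5.94 in captopril and 5.24, 5.62 and 5.46 in control, without overlap. The difference was 0.34 (unadjusted p 0.0563 in limma), and 0.05 in the authors' processed values. Cln6, a membrane protein of the endoplasmic reticulum needed for lysosome function, differed by -0.16.

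The vacuolar proton pump acidifies the lysosome, and 8 of its 15 tested subunits and partners had higher values. Atp6v1d, a subunit of the rotor stalk, had log2 levels of 11.41, 11.34 and 11.43 in captopril and 11.25, 11.09 and 11.10 in control, without overlap. The difference was 0.24 (unadjusted p 0.0798 in limma), and 0.23 in the authors' processed values. The pump partner Atp6ap2, also known as the prorenin receptor, differed by 0.18 with overlap, and its 4 tested probes gave 0.12 to 0.19. Among the 9 genes that sort enzymes by mannose phosphate tags, the receptors M6pr and Igf2r differed by 0.17 and 0.08.

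Of the relatives of Tfeb and the mTORC1 machinery 8 of 15 had higher values. Rptor, the scaffold of mTORC1, had log2 levels of 7.82, 7.94 and 7.993 in captopril and 8.08, 8.33 and 7.998 in control, a difference of -0.22 in which captopril 3 and control 3 nearly met. Mlst8, another subunit of that complex, differed by -0.18 with overlap. Of the autophagy genes 10 of 19 had higher values, and the list had a median difference near 0. Atg9a, a membrane protein of the growing autophagosome, differed by 0.23 without overlap, and Atg3, a conjugating enzyme, by 0.36 with overlap. In the authors' processed values these differences were 0.05 and 0.13. The protease inhibitors Cst3 and Cstb differed by 0.06 and 0.05.

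Endocytic uptake feeds tubular lysosomes, and 4 of 6 genes of that list had higher values. Cubilin (Cubn), a receptor for filtered protein, had log2 levels of 6.67, 6.89 and 6.82 in captopril and 6.50, 6.38 and 6.61 in control. The captopril arrays all lay above the control arrays, with a difference of 0.30 (SE 0.13, 95% interval -0.01 to 0.60) and an unadjusted p of 0.0540 in limma. In the authors' processed values the difference of Cubn was 0.08. The partner of cubilin, megalin (Lrp2), had log2 levels of 13.30, 13.11 and 13.06 in captopril and 12.66, 13.02 and 13.10 in control. The difference was 0.23 with overlap, and also 0.23 in the authors' processed values.

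The genes with an E-box can be read against those without. Of the 9 tested genes with CACGTG in the window, 3 had higher values, with a median difference of -0.18 and a range of -0.30 to 0.10. Of the 19 tested genes with a window without it, 11 had higher values, with a median of 0.01 and a range of -0.15 to 0.32. The 9 are Ctsf, Ctsl, Lgmn, Glb1, Gaa, Naglu, Arsa, Lamp1 and Mcoln1. In the authors' processed values their differences ran from -0.19 (Ctsf) to 0.11 (Lamp1), with a median of -0.06 (Naglu). The median of the 19 without it was 0.0077 (Gm2a) in those values. Mcoln1 stood there at -0.08, Naglu at -0.06 and Arsa at -0.05, beside -0.18, -0.30 and -0.22 here, while Lgmn stayed at -0.19. The probes of Ctsl, Naglu and Arsa were read at 1.09 to 1.61 times the detection limit, so their part in the median is uncertain. No single gene of either set passed the threshold, and the difference between the sets was not tested. Lamp1, with 4 cores, differed by 0.10, and Mcoln1, with the longer palindrome, by -0.18, while Ctsd and Gla, which hold the same palindrome, could not be tested.

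**Figure D5:**
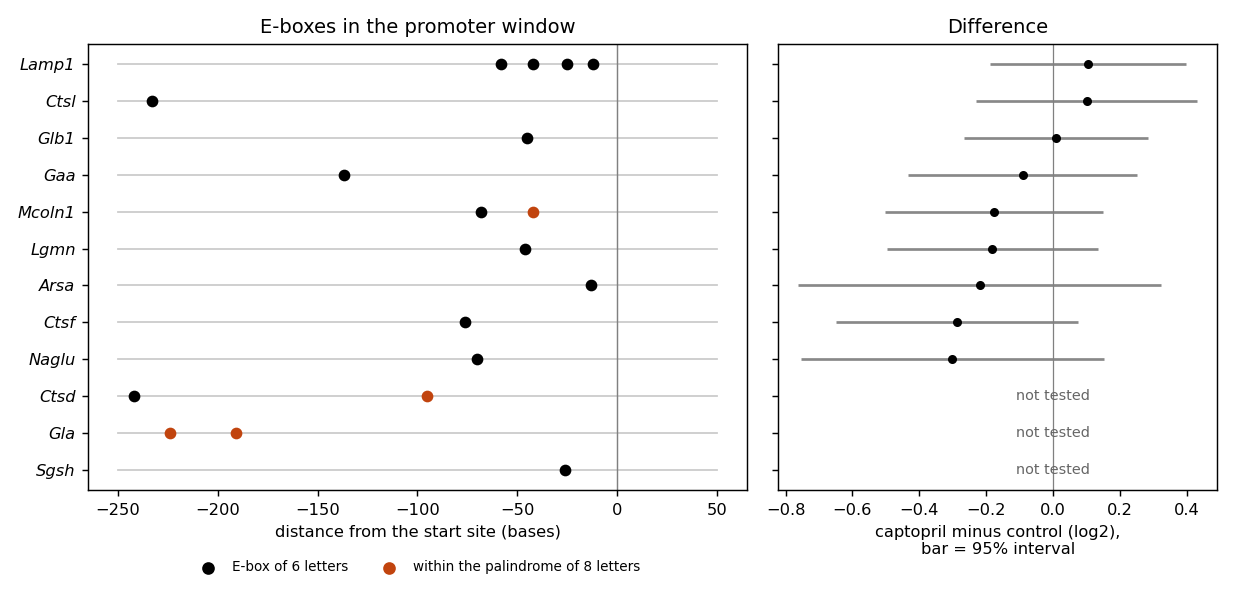
Left, E-boxes in the promoter windows of the 12 lysosomal genes that hold one (horizontal axis, bases from the start site), with black points for the 6-letter core and orange points where it lies in the 8-letter palindrome. Right, the log2 difference of each gene, captopril minus control, with its 95% interval (3 mice per group); Ctsd, Gla and Sgsh were too dim to test. Every interval crosses 0.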

How the data were processed

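The deposited scanner table holds a bead intensity per probe and array and a detection p-value beside it, per the file headers. The intensities were not normalized, since array medians ran from 111 to 147. A second deposited table gives the authors' log2 values, for which the submitters' processing notes name lumi. Their transform is not stated in what was read here. Each column of the authors' values ranked the probes as its array's intensity did (rank correlation 1), and every column had a median of 7.94. They were used as an alternative only.

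Intensities were background-corrected with limma's neqc (offset 16, negative controls inferred from the detection p-values), normalized by quantiles and put on log2, in R 4.3.3 with limma 3.58.1. The test took in 16500 probes, of 9718 named genes, that 3 or more of the 6 arrays detected (p under 0.05). A linear model in limma with moderated variance (lmFit, eBayes) gave captopril minus control from the 6 arrays with no other term. Its two-sided p-values were adjusted by Benjamini-Hochberg across all probes tested. Past the threshold were 3 probes without a gene name (0.0182%). With 3 arrays against 3, the smallest p of an exact permutation test is 0.1. Between 36.2% and 38.2% of probes were detected per array, the correlations between arrays were 0.984 to 0.987, and 0 pairs were identical. The number of arrays limits the precision.

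Names come from GEO's platform annotation, in which 34885 probes have 1 symbol and 10396 are unnamed here. A gene was represented by its tested probe with the highest mean. Members given in full are those with an unadjusted p under 0.05, those whose groups do not overlap, and the smallest p of each role. From each pathway list, genes with an unadjusted p under 0.05 or else the 2 smallest were named. The members and lists were chosen with earlier results of these data known. Same-numbered mice were not taken as pairs.

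Alternatives were no background correction, normexp at offset 50, median scaling, the authors' values, no filter, a detection p under 0.01 on all 6 arrays, trend and robust options, array weights, a replicate block, leaving out each array, and the mean of a gene's probes.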

Additional observations from a re-analysis of the deposited data

How the results depend on the processing

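The count of lysosomal genes past the threshold was 0 under every alternative run, and the smallest adjusted p of any of them was 0.773 in limma. Over all probes the count of 3 became 5 with trend and robust options and 0 with the replicate block, and was 2 whichever array was left out. The median difference of the lysosomal genes, 0.0076, ran from -0.028 to 0.0094 when 1 array was left out. With median scaling it was 0.088, where the median of all named genes was 0.075, and 25 of 33 genes had higher values, beside 17 with quantile normalization. The lysosomal genes without overlap numbered 0 there, beside 5.41% of all named genes, and 3 without the detection filter, beside 9.34%. With 1 array left out they numbered 3 to 8 of 33, beside 16.9% to 22.2% of all named genes. The 0 genes at an unadjusted p under 0.05 became 1 without background correction (Ctsf, p 0.0392), with the authors' values (Arsb, p 0.0457) and with trend and robust options (Ctsf, p 0.0465), beside 3.81%, 4.44% and 3.58% of all named genes. The count also became 1 without control 3 (Tfeb, p 0.0403), captopril 3 (Tfeb, p 0.0402) or captopril 1 (Naglu, p 0.0300), all in limma. Of all named genes 3.50%, 4.37% and 3.61% had such a p there. The adjusted p of these single genes ran from 0.968 to 1.00. Of 329 single-gene differences computed with all 6 arrays, 15 turned direction. With median scaling the turned values were Ctsb at 0.0010, Ctsh at 0.028, Hexa at 0.027, Manba at 0.022, Man2b1 at 0.019, Psap at 0.058, Npc2 at 0.066 and Lamp2 at 0.088. With array weights they were Glb1 at -0.0016 and Scarb2 at -0.0016, and with the mean of a gene's probes Ctsz at -0.022, Man2b1 at 0.038, Galns at -0.13, Lamp2 at 0.013 and Cd63 at -0.035. With 1 array left out, 36 of 198 values turned. The lowest and highest differences over the 6 left-out arrays were Ctsl -0.0074 to 0.16, Glb1 -0.022 to 0.040, Gm2a -0.064 to 0.065, Cd63 -0.033 to 0.064, Ctsc -0.12 to 0.16, Ctsz -0.038 to 0.17, Hexa -0.19 to 0.024, Neu1 -0.091 to 0.15 and Psap -0.043 to 0.028. For the other genes with a turned value they were Lamp2 -0.086 to 0.055, Scarb2 -0.12 to 0.13, Npc1 -0.028 to 0.11, Gaa -0.16 to 0.0029, Lipa -0.019 to 0.20, Npc2 -0.077 to 0.082, Ppt1 -0.0095 to 0.21, Ctsh -0.15 to 0.018 and Arsa -0.39 to 0.015. For the genes that did not turn they were Ctsb -0.21 to -0.008, Ctsf -0.37 to -0.15, Lgmn -0.27 to -0.12, Tpp1 -0.19 to -0.057, Gusb 0.026 to 0.34, Naglu -0.48 to -0.13, Manba -0.090 to -0.001, Man2b1 -0.11 to -0.019, Galns 0.018 to 0.29, Arsb 0.088 to 0.16, Asah1 0.096 to 0.19, Grn -0.22 to -0.062, Lamp1 0.037 to 0.14, Mcoln1 -0.25 to -0.076 and Tfeb 0.22 to 0.48. Median scaling moved the median of all named genes by 0.079, and relative to that median 0 of its 8 turned genes turned. The cause of the other turns was not tested, and 11 genes turned under no alternative. Deviations of same-numbered mice had correlations of 0.0045, 0.0099 and 0.042, beside -0.055 to 0.041 for mice of different numbers. These were taken after normalization. Before it, array medians were 147, 119 and 138 in captopril 1 to 3. In control 1 to 3 they were 142, 111 and 129, the same order. Whether same-numbered arrays were handled together was not tested. The numbers were not read as pairs, and the replicate block left the lysosomal count at 0. Probes near the detection limit are limited by signal over background, and over the alternatives with all 6 arrays Tfeb ran from 0.041 to 0.37 and Naglu from -0.30 to -0.061.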
